A study of Mus musculus with 3 samples.

Results

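Mitosis and spindle genes of mouse CD8 T cells are described here over 3 arrays, as a list of 40 gene symbols grouped by what their products do in cell division. The rule that picks them is the list of names and uses no measured value, though the list was drawn up with earlier results of these data known. Of the 40, 39 had a named probe set among the 19505 genes of the deposited table, and each of the 39 had 1 probe set. The cyclin gene Ccnb1 was not measured under its name, and Sgol1 is listed under its current symbol Sgo1. All 39 passed a level filter that 10940 of the 19505 genes passed, which asked for a mean log2 intensity of at least 5.02, the median over all probe sets of the table. The list was divided by function into 10 groups, so that each gene stands in 1 of them.

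Mitosis is driven by the kinase Cdk1 bound to cyclin A or cyclin B, and it ends when the anaphase-promoting complex (APC/C), a ubiquitin ligase, marks the cyclins for destruction. In between, microtubules built into a spindle attach to kinetochores on the centromeres, a checkpoint delays anaphase until all chromosomes are attached, and motor proteins and the midzone of the spindle position the cleavage furrow. CD8 T cells activated through CD3 and CD28 divide rapidly, and the genes of this machinery are transcribed late in the cell cycle, so that their RNA level in a population is commonly read as a sign of how many cells are cycling. In RNA from a whole population, more cells in division and more RNA per dividing cell cannot be told apart.

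The cells had been stimulated through CD3 and CD28 and kept with Tc1 cytokines, which direct CD8 T cells toward cytotoxic effectors, in all 3 samples. One sample had no added cholesterol and is called the control. The others had 0.5 µg/ml and 0.75 µg/ml cholesterol. The labels state neither strain, age, number of animals or cultures nor the time of exposure or the carrier of the cholesterol, so an effect of the carrier and one of cholesterol cannot be told apart. With 1 array per condition no difference below has a replicate check, no test was possible, and precision is limited by there being 3 arrays in all.

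Median intensities over all probe sets were 32.5, 32.4 and 33.0 for the control, 0.5 and 0.75 µg/ml, the order in which all series of 3 values are given. All 7 measured markers of CD8 T cells reached the background level of 102, among them Cd8a at 4225, 4164 and 3313, Cd8b1 at 2574, 2621 and 2030.0, and Cd3e at 4364, 4650.1 and 4594. That level is the highest 95th percentile of the negative-control probe sets on any array. Markers of other cells were near or under it, with Cd4 at 61.6, 39.4 and 35.7. None of the 6 markers of macrophages, monocytes and dendritic cells and neither NK cell marker reached it, and Ms4a1, Csf1r, Ncr1 and Alas2 lay between 8.72 and 14.7. Of 5 B cell markers and 3 erythroid markers 1 each did, Cd79b and Slc4a1, both chosen after their values were seen. The summed intensity of the B cell markers was 191, 165 and 172, that of the macrophage group 104, 107 and 108, and that of the erythroid markers 171, 172 and 165. The part of these other cell types in the results below was not tested.

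Many of these genes share promoter elements, which the choice of the list did not use. NF-Y, a trimeric transcription factor, binds CCAAT boxes, and the cell cycle genes homology region (CHR), whose core is TTTGAA and in some genes TTTAAA, is bound by the MuvB complex, which represses such genes in resting cells and, with B-Myb and FoxM1, activates them late in the cycle. The 250 bases before the RefSeq transcription start (build GRCm38.p6) are shown for 5 genes, with each CCAAT box and each CHR core on either strand in capitals. Cdc20 is shown for its large difference at 0.75 µg/ml, and Cdk1, Ccnb2 and Ube2c for their several matches. Ndc80 is shown as a member with none. The windows are chr4:118437344-118437593 (minus strand) for Cdc20, chr10:69352913-69353162 (minus) for Cdk1, chr9:70421555-70421804 (minus) for Ccnb2, chr2:164769679-164769928 (plus) for Ube2c and chr17:71526858-71527107 (minus) for Ndc80. Each is printed 5′ to 3′ on the gene's strand and ends at the base before the start.

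Cdc20: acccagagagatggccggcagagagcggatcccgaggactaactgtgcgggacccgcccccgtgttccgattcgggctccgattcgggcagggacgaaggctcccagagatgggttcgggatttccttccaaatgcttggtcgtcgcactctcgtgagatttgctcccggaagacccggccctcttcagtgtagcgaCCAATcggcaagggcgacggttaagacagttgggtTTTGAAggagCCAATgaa
Cdk1: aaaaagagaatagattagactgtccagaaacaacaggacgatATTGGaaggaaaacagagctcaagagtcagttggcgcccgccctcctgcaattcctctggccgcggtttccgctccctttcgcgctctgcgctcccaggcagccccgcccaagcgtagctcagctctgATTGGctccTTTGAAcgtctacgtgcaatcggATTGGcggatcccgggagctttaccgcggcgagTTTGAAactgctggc
Ccnb2: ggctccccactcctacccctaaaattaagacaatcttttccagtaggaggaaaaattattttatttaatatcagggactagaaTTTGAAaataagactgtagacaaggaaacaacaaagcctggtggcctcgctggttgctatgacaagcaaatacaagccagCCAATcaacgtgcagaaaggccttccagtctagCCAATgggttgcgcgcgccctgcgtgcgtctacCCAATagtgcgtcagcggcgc
Ube2c: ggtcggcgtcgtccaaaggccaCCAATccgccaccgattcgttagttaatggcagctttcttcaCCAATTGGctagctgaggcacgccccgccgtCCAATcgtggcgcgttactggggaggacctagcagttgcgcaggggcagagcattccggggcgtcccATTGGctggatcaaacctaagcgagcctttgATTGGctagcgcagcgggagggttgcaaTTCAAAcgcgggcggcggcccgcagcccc
Ndc80: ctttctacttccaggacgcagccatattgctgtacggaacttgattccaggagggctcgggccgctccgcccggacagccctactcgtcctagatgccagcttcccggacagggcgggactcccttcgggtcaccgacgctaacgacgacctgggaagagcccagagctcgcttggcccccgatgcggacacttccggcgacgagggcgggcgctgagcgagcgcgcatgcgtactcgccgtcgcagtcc

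In Cdc20 the capitals mark CCAAT boxes that begin 53 and 8 bases before the start, with TTTGAA between them at 18 bases. Cdk1 had 3 CCAAT boxes, which begin 208, 80 and 48 bases before the start, and 2 copies of TTTGAA, at 71 and 15 bases. Ccnb2 had CCAAT boxes at 87, 54 and 21 bases, and Ube2c had 6, of which those at 186 and 183 bases overlap as 1 box on each strand.

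Promoter windows were matched for 34 of the 40 genes, Ccnb1 included. Ccna2, Cdc25c, Aurkb, Incenp, Kif20a and Tpx2 had no window. Each window precedes the first listed start, which is not always at the 5′ end of the gene. For Kif2c and Sgol1 that start lay 3852 and 2016 bases from the gene's 5′ end, and for Cdc25b, Ect2 and Aurka 512, 375 and 316. A CCAAT on either strand was found in 26 of the 34 (76.5%), against 36.3% of 17491 protein-coding genes with a window and 36.8% of the 8866 that passed the level filter. At least 2 were found in 17 of the 34 (50.0%), against 14.3% of those that passed the filter. TTTGAA was present in 10 of 34 (29.4%), against 15.0% of protein-coding genes and 10.6% of those that passed the filter. For TTTAAA it was 6 of 34 (17.6%), against 11.4% and 7.94%. The matches were counted separately for each motif even where they overlap. A CCAAT together with either CHR core was found in 13 of 34 (38.2%), against 8.75% of protein-coding genes and 6.78% of those that passed the filter. Among 39 windows of DNA replication and G1/S genes, a group that acts earlier in the cell cycle, 21 (53.8%) held a CCAAT and 4 (10.3%) held both kinds of element. Of the 57 CCAAT matches in the members' windows, 39 (68.4%) began within 100 bases of the start, against 50.9% of the 9341 in all protein-coding windows. These shares describe letters in the windows and not sites in use.

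**Figure D1:**
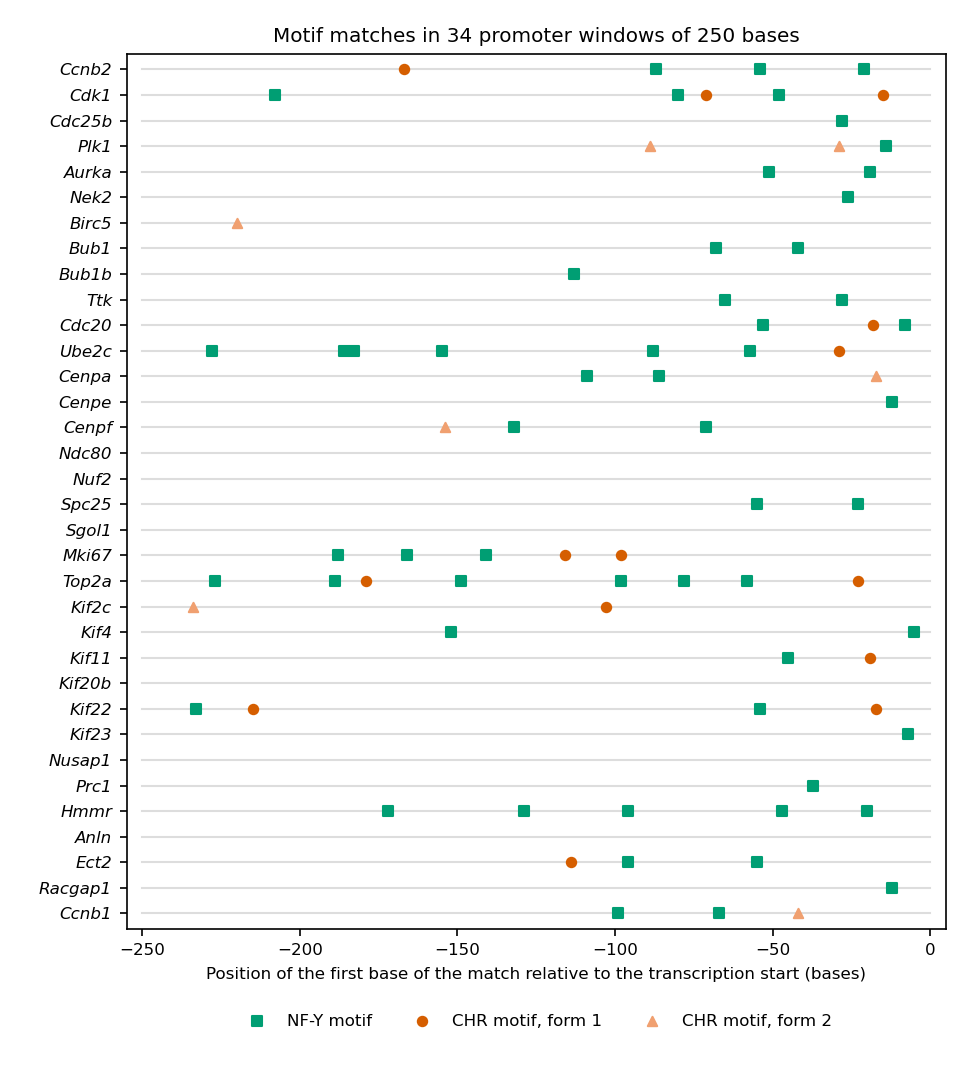
Positions of motif matches (symbols) in the 250 bases before the first listed transcription start, 1 line per gene. Squares (NF-Y motif) mark CCAAT boxes on either strand, circles (form 1 of the CHR motif) TTTGAA and triangles (form 2) TTTAAA. Of the 34 windows 26 hold a CCAAT box, and 39 of the 57 boxes begin within 100 bases of the start.

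At 0.5 µg/ml cholesterol most of these genes were slightly brighter than in the control, and none differed by much. Of the 39, 35 were above the control (89.7%), 3 were below and 1 was equal. The median log2 difference was 0.09, with quartiles of 0.02 and 0.18 and a full range from -0.04 to 0.38. Over all 10940 genes past the level filter the median was 0.01 and 52.9% were above the control. Among the 7856 genes whose mean intensity lay in the range of the members, 85.4 to 2091, the median was 0.01 and 52.7% were above. Positive-control probe sets in the same range, 977 in number, had a median of 0.02, with 53.9% above the control.

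Fold thresholds gave few members at this dose. The threshold was 0.32 on the log2 scale, an intensity 25% higher or 20% lower. Only Ccna2 was higher by that much, 1 of 39 against 5.91% of all genes past the filter, and none was lower by that much, against 5.18%. No member differed 2-fold, against 0.146%. The full set holds many dim genes, and of the 7856 genes in the members' intensity range 273 were past the threshold upward and 287 downward. Among the members, next below the threshold was Bub1b at 0.27. The largest difference downward was that of Top2a, at -0.04.

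At 0.75 µg/ml the members spread further to both sides. Of the 39, 29 were above the control (74.4%) and 10 below, with a median log2 difference of 0.07, quartiles of 0.00 and 0.14 and, among members above the background level, a range from -0.24 to 0.58. All genes past the filter had a median of 0.00 and 50.2% above, and the genes in the members' intensity range 0.00 and 50.0%. Positive-control probe sets in that range had a median of 0.06 and 60.2% above the control. Their median was thus close to that of the members, while their share above the control was lower than the members' 74.4%. The part of this shift of the positive controls in the result was not tested.

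Past the threshold were 2 members above the control, Cdc20 and Ccna2, against 10.8% of all genes past the filter, and 1 below, Anln, against 13.1%. With the arrays centred on named genes or quantile normalized, Ccna2 was at 0.320 and 0.30 and no longer past the threshold of 0.322, which left 1 member above. No member differed 2-fold, against 1.93%. On either side of the threshold lay Ccna2 at 0.33 and Cdk1 at 0.30, and the lower gene nearest to it from outside was Cenpf at -0.24. As a share of 39, these counts were under the background in each direction. Of the 7856 genes in the members' intensity range, 710 were past the threshold upward and 982 downward. The SD of the differences was 0.17 over the members and 0.34 over the genes in their intensity range, and at 0.5 µg/ml 0.09 and 0.18.

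**Figure D2:**
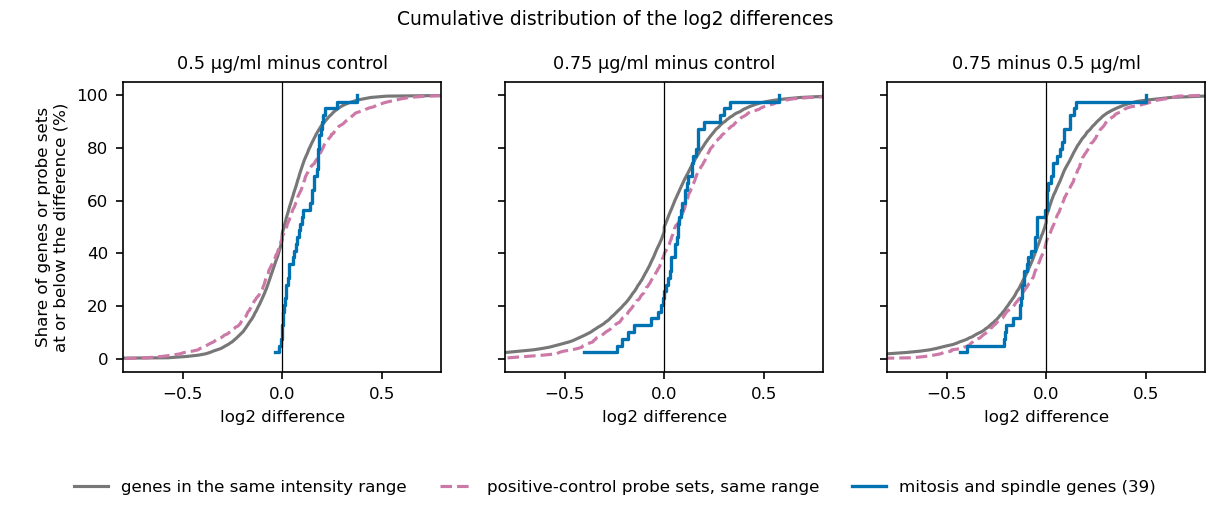
Cumulative share (%, vertical axis) of genes or probe sets at or below each log2 difference (horizontal axis, drawn from -0.8 to 0.8) for the 3 comparisons, with the 39 genes as steps, genes in their intensity range as a grey line and positive controls dashed. At 0.5 µg/ml the curve of the 39 genes lies to the right of both other curves over most of its length, with a median of 0.09 against 0.01 for genes and 0.02 for positive controls. At 0.75 µg/ml its median of 0.07 is close to the 0.06 of the positive controls.

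Both dose comparisons use the same control array, so whatever is particular to that array enters both. The control array had the lowest of the 3 values, alone or tied, for 29 of the 39 genes (74.4%), against 37.5% of genes in the same intensity range. A tie for the lowest or highest value was counted for the first array in the order given. Among the members this applied to Kif20b, which had equal values on the control and 0.5 µg/ml arrays. The highest value was on the 0.5 µg/ml array for 20 members (51.3%, against 30.8%), on the 0.75 µg/ml array for 16 (41.0%, against 37.1%) and on the control array for 3 (7.69%, against 32.1%). Those 3 were Cdc25c, Top2a and Kif22. The span from the lowest to the highest of the 3 log2 values had a median of 0.17 over the members and 0.21 over genes in their range, and its largest value was 0.58, that of Cdc20.

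The robust SD of the positive controls in the members' range (the median absolute deviation, scaled to match a normal SD) was used as a yardstick. It was 0.21 for 0.5 µg/ml against the control, 0.23 for 0.75 µg/ml against the control and 0.22 between the doses. It is a spread over different control probe sets and does not measure how far a gene varies between replicate arrays. Members beyond it were Ccna2, Bub1b and Cenpe at 0.5 µg/ml, 3 of 39, against 20.4% of genes in the range. At 0.75 µg/ml they were Ccna2, Cdk1, Bub1b, Cdc20, Cenpf and Anln, 6 of 39, against 34.5%. Between the doses they were Cdc20, Cenpf and Anln, 3 of 39, against 31.1%. Cdc20 was the sole member beyond 2 such SDs, at 0.75 µg/ml and between the doses. All members other than those named for a comparison lay within it there.

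**Figure D3:**
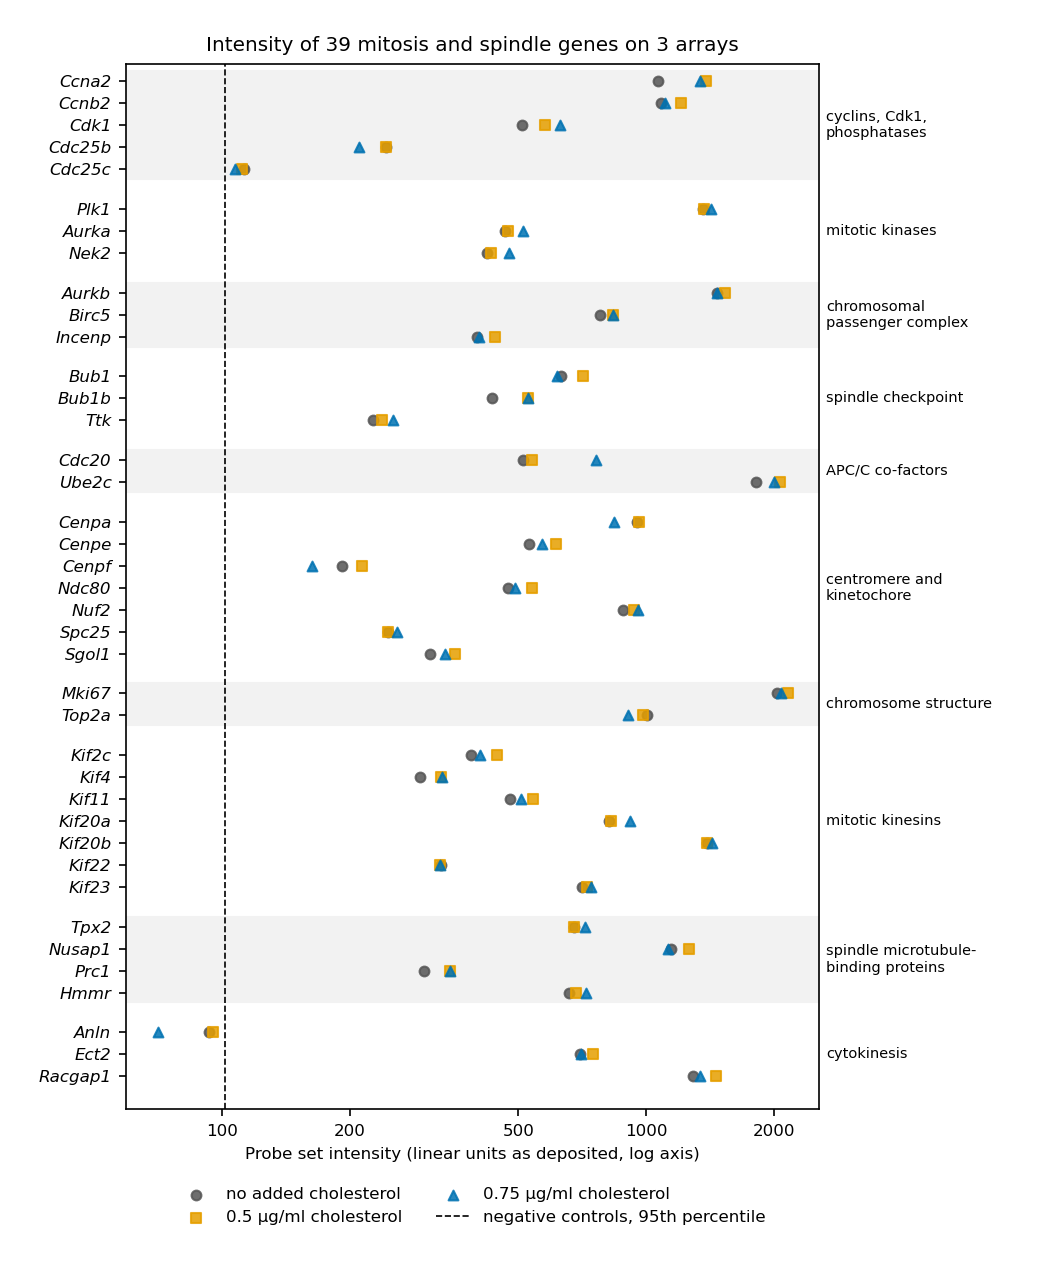
Intensity of the 39 genes (horizontal log axis, linear units as deposited) on the control array (circles), at 0.5 µg/ml (squares) and at 0.75 µg/ml (triangles), grouped by function. The dashed line is the background level of 102, and Anln alone lies under it on all arrays.

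Among the cyclins, Cdk1 and its phosphatases, 1 of 5 measured genes, that of cyclin A2, was past the threshold, at both doses. Ccna2, the cyclin A that partners Cdk2 in S phase and Cdk1 in early mitosis, was at 1069, 1387 and 1342, so both cholesterol arrays lay above the control by 0.38 and 0.33 on the log2 scale, or 1.30-fold and 1.26-fold. Cdk1, the kinase that drives entry into mitosis, was at 509, 577 and 627, with differences of 0.18 and 0.30, both under the threshold. Ccnb2, a cyclin B, was at 1087, 1206 and 1109, highest at 0.5 µg/ml and near the control at 0.75 µg/ml. Cdc25b and Cdc25c encode phosphatases that remove inhibitory phosphates from Cdk1. Cdc25b was at 243, 244 and 210.4, lower at 0.75 µg/ml by 0.21 against both other arrays. Cdc25c was at 112, 111 and 107, just above the background level on all 3.

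The mitotic kinase genes Plk1, Aurka and Nek2 were highest at 0.75 µg/ml, each by little. Plk1, which acts in centrosome maturation, mitotic entry and cytokinesis, was at 1362, 1371 and 1425. Aurka, the kinase of spindle poles, was at 465, 472 and 513, and Nek2, a kinase of centrosome separation, at 421, 431 and 474. Their differences at 0.75 µg/ml were 0.07, 0.14 and 0.17, against 0.01, 0.02 and 0.03 at 0.5 µg/ml.

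The chromosomal passenger complex, which corrects faulty attachments and later acts at the midzone, was represented by its kinase Aurkb, its scaffold Incenp and the survivin gene Birc5. Aurkb was at 1474, 1532 and 1472. Incenp was at 399, 439.8 and 405, and Birc5 at 779, 835 and 837. None of the 3 was further than 0.14 from the control at either dose.

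Of the checkpoint kinases, which hold back the APC/C until every kinetochore is attached, Bub1b was higher on both cholesterol arrays. Bub1b, which encodes BubR1 of the inhibitory mitotic checkpoint complex, was at 434, 525 and 527, with differences of 0.27 and 0.28. Bub1 was at 630.4, 712 and 617, and so was higher at 0.5 µg/ml alone. Ttk, the gene of the Mps1 kinase at the head of the checkpoint, was at 227, 238 and 253.

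The difference of largest size in the list was in Cdc20, which encodes the APC/C activator that the checkpoint restrains. Cdc20 was at 512, 538 and 763, so the 0.75 µg/ml array stood apart while the other two were close. Its log2 difference of 0.58 (1.49-fold) was above that of 97.4% of the genes past the filter. Cdc20 was picked out as the largest of the list, and the largest of many genes ranks high by that choice alone. The rank by itself therefore does not mark Cdc20 out. For Cdc20 the difference between the doses was 0.50 (1.42-fold). Ube2c, the ubiquitin-conjugating enzyme that works with the APC/C, was at 1819, 2067 and 2001, 0.18 and 0.14 above the control. The 2 genes therefore had different profiles over the 3 arrays. Both windows printed above carry CCAAT boxes and TTTGAA, and the part of these elements in the profiles was not tested.

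All 7 centromere and kinetochore genes were above the control at 0.5 µg/ml, and 5 of the 7 were at 0.75 µg/ml. The medians over all 7 were 0.16 and 0.07. Cenpe, a kinetochore motor, was at 529, 614 and 568. The microtubule-binding Ndc80 complex was represented by Ndc80 at 472, 537 and 489.7, Nuf2 at 882, 938 and 955 and Spc25 at 246, 247 and 259. Sgol1, the shugoshin that protects centromeric cohesion, was at 309, 354 and 336. The exceptions at 0.75 µg/ml were Cenpa, the histone variant that marks centromeres, at 953, 964 and 839, and Cenpf, a large protein of the outer kinetochore, at 192, 214 and 162. Cenpf lay 0.16 above the control at 0.5 µg/ml and 0.24 below it at 0.75 µg/ml, the widest divergence between doses among members above the background level other than Cdc20.

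The chromosome structure genes gave no common direction. Mki67, the proliferation marker Ki-67, which coats mitotic chromosomes, was at 2033, 2156 and 2085, within 0.08 of the control at both doses. Top2a, the topoisomerase that untangles sister DNA, was at 1007, 982 and 907, below the control by 0.04 and 0.15.

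Mitotic kinesins, the motors of the spindle and midzone, were close to the control, with medians of 0.04 and 0.07 over 7 genes. Kif2c, which depolymerises microtubules at centromeres, was at 387, 445 and 406, and Kif11, the motor that separates the poles, at 478, 541 and 506. Kif4, a chromosome-bound motor, was at 293, 328 and 330.0. Those 3 were higher on both cholesterol arrays, by 0.07 to 0.20. Kif20a and Kif23, motors of the midzone, were at 817, 828 and 918 and at 706, 724 and 740.0. Kif20b was at the same deposited value on the control and 0.5 µg/ml arrays, 1396, and at 1431 on the third, and 280 of the 10940 genes past the filter were equal on those arrays. Kif22, a motor that pushes chromosome arms, was at 328, 327 and 327.

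Among the proteins that bind spindle microtubules, Prc1, which bundles the midzone, was at 299.7, 346 and 344, with differences of 0.21 and 0.20. Tpx2, the activator of Aurora A on the spindle, was at 676, 677 and 719.6, and Hmmr at 657, 684 and 723. Nusap1 was at 1142, 1265 and 1128. All 4 were within 0.21 of the control.

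For the cytokinesis genes, Racgap1, the GTPase-activating component of centralspindlin, was at 1291, 1462 and 1339.6. Ect2, which centralspindlin recruits to activate RhoA at the furrow, was at 697, 749.6 and 702. Both were highest at 0.5 µg/ml. Anln, the gene of the actin-binding furrow protein anillin, was at 93.1, 94.9 and 70.4. Those values are under the background level on all arrays, so no fold is given, and its count among the lower genes at 0.75 µg/ml rests on dim values.

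**Figure D4:**
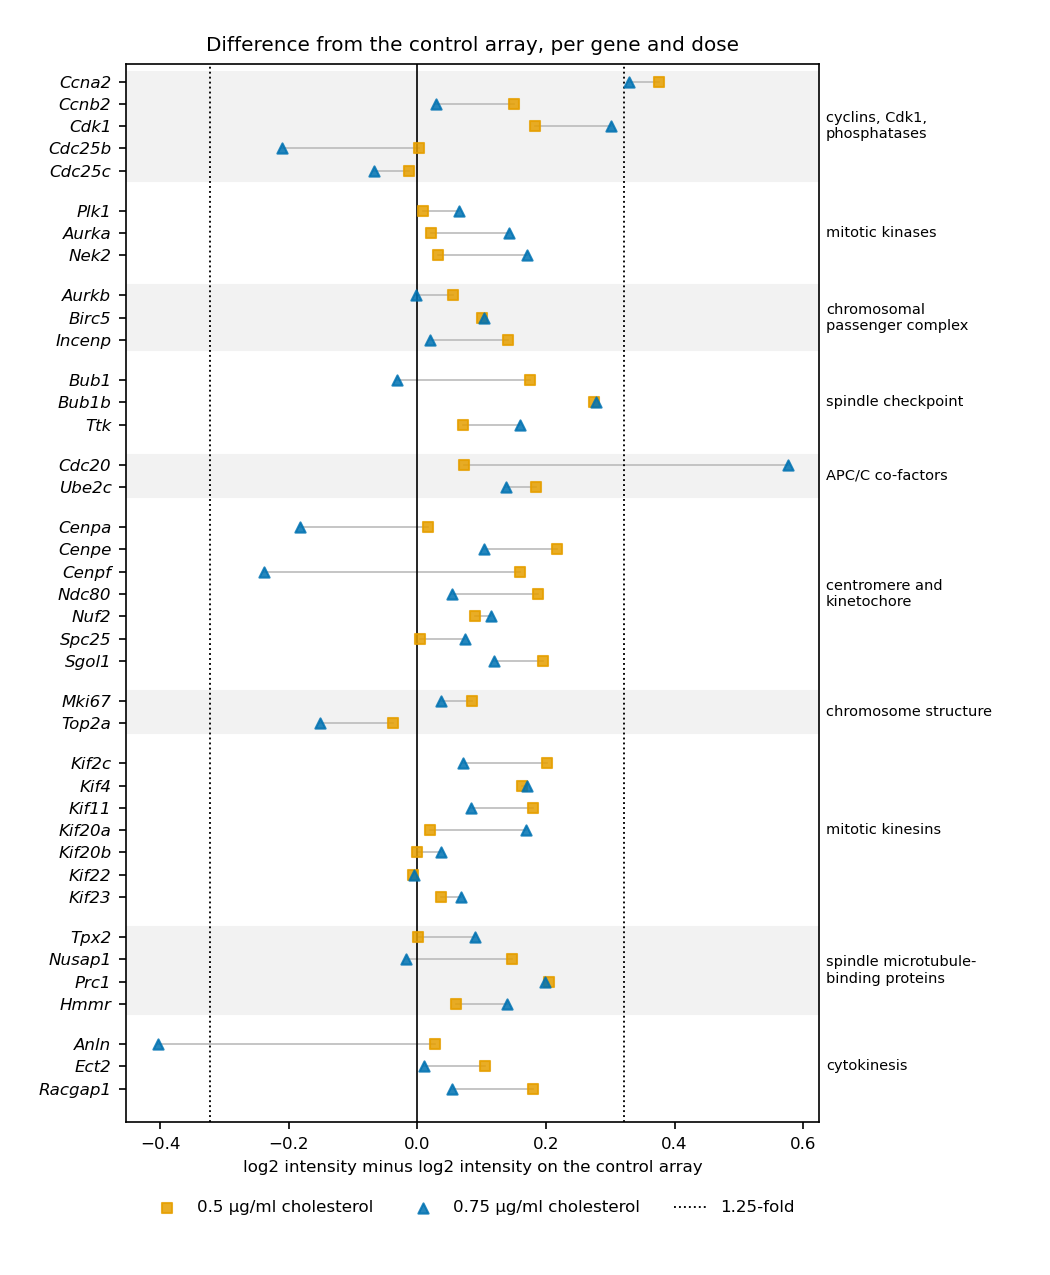
Log2 difference from the control array (horizontal axis) for each gene at 0.5 µg/ml (squares) and 0.75 µg/ml (triangles), joined by a grey line. Dotted lines mark the threshold of 0.32 either way, which Ccna2 exceeds at both doses, Cdc20 at 0.75 µg/ml upward and Anln downward.

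Set against each other, the doses differed little over the list. At 0.75 µg/ml 17 members were above and 22 below their value at 0.5 µg/ml, with a median of -0.05 against -0.01 over all genes past the filter. Cdc20 alone was past the threshold upward at the higher dose, 1 of 39 against 7.59% of genes, and Cenpf and Anln downward, 2 of 39 against 11.3%. Cenpf differed by -0.40, or 1.32-fold lower. Nearest outside the threshold were Kif20a at 0.15 and Cdc25b at -0.21. None differed 2-fold, against 1.59%. Of the 7856 genes in the members' intensity range, 491 were past the threshold upward and 822 downward.

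The differences were also summarised by promoter element, over the measured members with a window. Members without a window are left out, among them Ccna2, which had the largest difference at 0.5 µg/ml. The 25 measured members with a CCAAT had a median difference of 0.08 at 0.5 µg/ml and 0.07 at 0.75 µg/ml, and the 8 without one 0.12 and 0.06. For TTTGAA the medians were 0.13 and 0.05 over 10 members with it and 0.09 and 0.07 over 23 without. Between the doses the medians were -0.01 with and -0.10 without a CCAAT, and -0.07 with and 0.00 without TTTGAA.

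Genes that act around the list were described through 8 further lists with 187 measured genes of 195. Their median differences were 0.06 at 0.5 µg/ml, with 130 above the control (69.5%, against 52.9% of all genes past the filter), and 0.03 at 0.75 µg/ml, with 105 above (56.1%, against 50.2%). Past the threshold were 2 above and 2 below at 0.5 µg/ml, and 11 above and 9 below at 0.75 µg/ml. As shares of 187 these counts were under the background in each direction, which was 5.91% and 5.18% at 0.5 µg/ml and 10.8% and 13.1% at 0.75 µg/ml. The 4 at 0.5 µg/ml were the kinetochore genes Cenpk, at 117, 150.1 and 129.9, and Ska1 upward, and the APC/C subunit gene Anapc16, at 596, 475 and 613, and the spindle gene Psrc1, at 792, 589 and 819, downward. Those genes and Kntc1, Cenpo, Pkmyt1 and Ccne1 are named because they passed the threshold, after their values were seen. None differed 2-fold at either dose.

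DNA replication and G1/S genes act before mitosis in the cycle. Of their 48 measured genes, 37 exceeded the control value at 0.5 µg/ml and 32 did so at 0.75 µg/ml, with medians of 0.07 and 0.10, beside 0.09 and 0.07 for mitosis. At 0.75 µg/ml 4 of them were past the threshold upward and 1, the S-phase transcription factor E2f1, downward, at 315, 285 and 241, against 10.8% and 13.1% of all genes past the filter, so neither share of 48 was above the background. Orc1, a subunit of the origin recognition complex, was at 348, 350.0 and 489, Rrm2 of ribonucleotide reductase at 1967, 2247 and 2609, and the cyclin E genes Ccne1 and Ccne2 at 767, 856 and 989 and at 246, 265 and 323. Orc1 shared with Cdc20 a value that was high at 0.75 µg/ml alone.

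Condensin, cohesin and separase genes, which shape and hold sister chromatids, were above the control in 16 of 20 cases at 0.5 µg/ml, with a median of 0.10, and in 10 of 20 at 0.75 µg/ml, with a median of 0.00. None was past the threshold at either dose. At 0.75 µg/ml the most different were the condensin II subunit gene Ncapg2 at 182, 180.4 and 214 and the cohesin acetyltransferase gene Esco2 at 357, 355 and 308. Smc2 was at 424, 471 and 471 and Smc3 at 452, 451 and 426.

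Further checkpoint and kinetochore genes had medians of 0.07 and 0.06 over 35 genes, with 3 past the threshold upward and 4 downward at 0.75 µg/ml, shares close to the background of 10.8% and 13.1%. Of the 35, 34 passed the level filter that this background asks for, and 3 were under the background level on all arrays. Zwint, a kinetochore scaffold protein, was at 265, 267 and 341. Genes of the inner kinetochore went both ways, with Cenpu at 82.0, 95.9 and 106, Cenph at 154, 162 and 118 and Cenpp at 132, 121 and 85.5. Cenpo, of the same layer, was at 275, 261 and 218, and Kntc1, which recruits dynein to kinetochores, at 553, 515 and 436. Ska1 was at 21.0, 29.0 and 30.1, under the background level on all arrays. The APC/C list had medians of 0.04 and 0.03 over 17 genes. In it Anapc15, a subunit that helps release the checkpoint complex, was at 349, 387 and 457 and Cdc26 at 384, 386 and 315. Anapc1 was at 523, 529 and 595 and Anapc10 at 147, 128 and 129.

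Further kinesins and spindle proteins had medians of 0.01 and -0.00 over 27 genes, and none was past the threshold at 0.75 µg/ml. Gtse1, a microtubule-binding protein of G2 and S phase, was at 1055, 976 and 1278. Haus1, part of the augmin complex, was at 333, 412 and 400.3. Kif15 was at 626, 670.0 and 736 and Kif18a at 163, 145 and 141. Regulators of mitotic entry had medians of 0.01 and 0.02 over 12 genes, with the phosphatase gene Cdc25a at 429, 497 and 512, Cdca3 at 1067, 1027 and 934, Cks2 at 142, 142 and 160.1 and Mastl at 256, 241 and 230.5. Pkmyt1, a kinase that inhibits Cdk1, was past the threshold at 0.75 µg/ml with dim values of 54.3, 61.7 and 72.7.

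Transcription factors of the G2/M program had medians of 0.08 and 0.10 over 14 genes, with 2, E2f7 and E2f8, past the threshold upward at 0.75 µg/ml and none downward, against 10.8% and 13.1% of all genes past the filter. E2f8 was barely past it, at 0.323 against 0.322, and its value was not recomputed under other processing. Foxm1, also on this list, was not measured. E2f7, an atypical E2F that represses cell cycle genes, was at 181, 204 and 307, 1.70-fold above the control at the higher dose. Its relative E2f8 was at 781, 826 and 977, the gene of B-Myb, Mybl2, at 475, 498 and 584, and E2f4, a subunit of the repressor DREAM, at 1128, 1258 and 1366. All 4 were highest at 0.75 µg/ml.

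Cyclin-dependent kinase inhibitors and arrest genes had the lowest median of the 8 related lists at 0.75 µg/ml, -0.10 over 14 genes, with 6 above and 8 below the control. The 4 of its genes past the threshold downward were Btg1, an antiproliferative gene, at 1598, 1368 and 862, Ccng2, a cyclin linked to arrest, at 837, 898 and 526, Cdkn1b, which encodes the inhibitor p27, at 621, 618 and 406, and Btg2 at 268, 247 and 211. That is 4 of 14, against 13.1% of all genes past the filter. Only 12 of the 14 passed that filter, and 4 were under the background level on all arrays. None of the 14 was past the threshold upward. Ccng1, at 2634, 2681 and 3283, was above the control at 0.75 µg/ml by 0.318 on the log2 scale. Cdkn1a, the gene of the inhibitor p21, at 3417, 3157 and 4068, was above it by 0.25. Both were named after their values were seen. Btg1 was lower by 0.89 on the log2 scale, 1.85-fold, Ccng2 1.59-fold and Cdkn1b 1.53-fold, each further from the control than any mitosis gene at this dose. At 0.5 µg/ml the list had a median of 0.01 and no gene past the threshold.

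**Figure D5:**
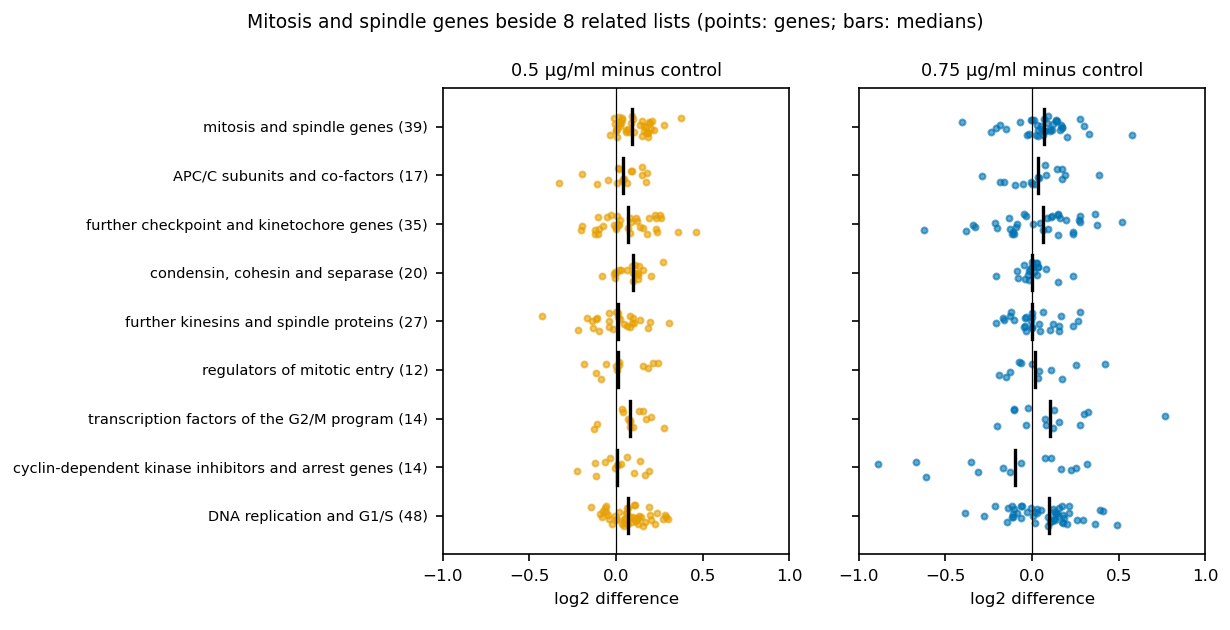
Log2 differences from the control (horizontal axis) at 0.5 µg/ml (left) and 0.75 µg/ml (right) for the mitosis and spindle genes and 8 related lists, with the number of genes in brackets. Points are genes, spread vertically for sight, and bars are medians. The lowest points on the right are Btg1, Ccng2, Cenpp and Cdkn1b, and the highest is E2f7.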

How the data were processed

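Biotin-labelled RNA was hybridised after whole-transcript labelling, per the labels. The authors deposited linear intensity values, as their range shows. The software, background correction and normalization behind them were not given in the sources used here. The platform annotation named 19572 of 22206 transcript probe sets, each with 1 gene symbol (0 with several), and left 2634 unnamed. All 19572 gene identifiers matched RefSeq's gene table for GRCm38.p6. The brightest probe set stood for a gene. Log2 was taken without further scaling, and differences between arrays were computed with Python 3.11.15, numpy 2.4.6 and pandas 2.3.3 (plots: matplotlib 3.10.9). Steps were tested on simulated data. Promoter windows come from RefSeq, the first listed window per gene. Beside all members, up to 4 genes per related list were named, those with the largest difference at 0.75 µg/ml that passed the level filter and reached the background level on an array. The members, lists and thresholds were chosen with earlier results of these data known. Alternatives tried were 2 scalings, raised dim values, a pseudocount of 16, the mean of all probe sets, and members past the level filter.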

Additional observations from a re-analysis of the deposited data

How the results depend on the processing

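Each member count and median was recomputed under 6 alternatives, with counts above 0 added after the data were seen. Of these, the mean of all probe sets and the level filter could not change a member's value, since each member had 1 probe set and all 39 passed the filter. Under the other 4 the median difference kept its sign, from 0.07 to 0.09 at 0.5 µg/ml, from 0.06 to 0.08 at 0.75 µg/ml and from -0.05 to -0.03 between the doses. Members above the control numbered 32 to 35 at 0.5 µg/ml and 29 to 30 at 0.75 µg/ml. Centring the arrays on named genes or quantile normalization left 1 member past the fold threshold upward at 0.75 µg/ml in place of 2, since Ccna2 was then at 0.32 (0.320 after centring, under the threshold of 0.322) and 0.30. Raising values under 102 to that level left 0 members past it downward at 0.75 µg/ml in place of 1, and 1 between the doses in place of 2, since Anln was then at 0. No other count moved by over 1.5 times. No paired analysis was possible because each group had 1 array. Intensity over background limits Anln, which was under the background level on all arrays, and Cdc25c, which was just above it.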
